A study of Mus musculus with 33 samples.

Results

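The guide RNAs described here target the coding sequence of green fluorescent protein (GFP) and served as positive controls in a CRISPR screen of reporter lines made from mouse embryonic stem cells. They were chosen as the rows whose location is given as egfp in the count table of each reporter line. There were 10 of them among the 3918 library guides of every line, or 0.255% of the guides, and the other 3908 carry a genomic interval. They have no name of their own, so they are numbered 1 to 10 here in table order, and a number shared by several lines is not known to stand for the same guide.

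The screen used 4 lines, each with GFP at a different gene. GFP took the place of sequence at the start of transcription in the Tdgf1 and Zfp42 lines, and in the Nanog and Rpp25 lines it was fused to the C-terminus of the protein. Tdgf1 encodes a co-receptor for Nodal signals, Zfp42 a zinc finger protein of pluripotent cells, Nanog a homeobox factor of pluripotency and Rpp25 a subunit of ribonuclease P. A placeholder guide stood at the ROSA26 locus of all lines, and all grew in serum medium with LIF, GSK-3 inhibitor XV and UO126. After electroporation of the library guides, genomic DNA was taken from sorted GFP-negative cells, from sorted GFP-medium cells in the Tdgf1 and Zfp42 lines, and from the unsorted bulk population. The 27 libraries were 3 replicates each of GFP-negative, GFP-medium and bulk cells in Tdgf1, 4 of each in Zfp42, 2 each of GFP-negative and bulk cells in Nanog, and 1 of each of these in Rpp25. The sources used here do not say how many copies of a gene carried GFP, whether a line was a clone or how many cells were sorted.

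Cas9 directed by a guide cuts DNA at the matching site, and repair by end joining often leaves small insertions or deletions. Within a coding sequence these can shift the reading frame, so a guide that cuts the GFP gene can abolish fluorescence without touching the regulatory DNA of the tagged gene. Such guides show what loss of the reporter itself looks like in a sorted population, and guides that tile genomic DNA are read against them. The count tables list the GFP-targeting guides without sequences, so they are described here by their values.

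Totals without the placeholder were 142821 to 719247 counts in GFP-negative, 121455 to 461825 in GFP-medium and 39096 to 123840 in bulk libraries. Of these counts, the GFP-targeting guides together held 14515 to 139999 in GFP-negative, 90 to 1564 in GFP-medium and 129 to 668 in bulk libraries. By counting error alone, the bulk and GFP-medium levels are the less precise side of a ratio with GFP-negative cells. Between replicates, however, libraries of both populations differed by more than counting error. Chi-square per degree of freedom over guides was 292 to 928 in GFP-negative and 5.61 to 18.2 in bulk cells. This value grows with the counts per guide, and GFP-negative libraries had more counts, so it does not compare the relative spread of both populations. Counts were scaled to a total of 1000000 library guide counts per library (CPM), with the placeholder left out. A share or a CPM value cannot tell more copies of some guides from fewer copies of others. PCR products without molecular identifiers are not independent molecules, so intervals given below cover counting error only. The labels name replicates of a line without saying that they were separate cultures, so p-values measure the spread between these libraries. In Zfp42 bulk libraries the placeholder took 1.22% and 1.09% of all counts in replicates 1 and 2, against 22.5% and 23.5% in replicates 3 and 4, so results of that line are also given within these pairs.

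The first question is how strongly loss of GFP fluorescence selects for guides that cut GFP. In every line the GFP-targeting guides together took a far larger share of the GFP-negative than of the bulk libraries. In Tdgf1 they held 4.53%, 8.41% and 6.62% of the guide counts in GFP-negative replicates 1 to 3, against 0.202%, 0.242% and 0.186% in bulk. In Zfp42 they held 21.5%, 28.2%, 27.8% and 16.1% in GFP-negative replicates 1 to 4, against 0.574%, 0.805%, 0.645% and 0.330% in bulk. The lowest GFP-negative library lay above the highest bulk library of its line in both. In Nanog the shares were 10.2% and 12.1% in GFP-negative libraries and 0.564% and 0.575% in bulk. In Rpp25 the share was 42.0% in the GFP-negative library (exact 95% interval 41.8% to 42.1%) and 0.815% in bulk (0.752% to 0.883%).

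Within a replicate number, the share was 22.4-fold, 34.7-fold and 35.5-fold higher in GFP-negative than in bulk cells of Tdgf1. The same ratio was 37.4-fold, 35.0-fold, 43.1-fold and 48.8-fold in Zfp42 and 18.0-fold and 21.1-fold in Nanog. In Rpp25 it was 51.5-fold, with a counting interval of 47.5-fold to 55.8-fold and no replicate. The Nanog ratios thus lay below every other ratio, and the Zfp42 ratios lay close to or above those of Tdgf1; these differences between lines were not tested. On average the share was 6.52% ± 1.94 in GFP-negative and 0.210% ± 0.0289 in bulk cells of Tdgf1 (SD, n = 3 each). It was 23.4% ± 5.74 in GFP-negative and 0.589% ± 0.198 in bulk cells of Zfp42 (SD, n = 4 each), and 11.1% ± 1.38 in GFP-negative and 0.569% ± 0.00738 in bulk cells of Nanog (SD, n = 2 each). The higher share did not rest on one guide. Without the leading GFP-targeting guide of each GFP-negative library, the remaining ones were still 20.8-fold to 37.7-fold higher in GFP-negative than in bulk cells of Tdgf1, 32.6-fold to 58.9-fold in Zfp42, 17.2-fold to 22.3-fold in Nanog and 46.6-fold in Rpp25.

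In the Tdgf1 line all 10 GFP-targeting guides had counts, and each had a higher mean CPM in GFP-negative than in bulk cells, by 6.02-fold (guide 7) to 42.8-fold (guide 9). Guide 4 was the most abundant of all library guides in GFP-negative cells by mean, with 7837, 12368 and 27395 CPM, against 535, 315 and 834 CPM in bulk. Guide 10 had 6089, 25951 and 5789 CPM in GFP-negative cells and 184, 525 and 278 CPM in bulk. Guide 9 had 8679, 6550 and 9360 CPM in GFP-negative cells and 384, 88.8 and 102 CPM in bulk. For all 3 guides the GFP-negative libraries lay well above the bulk libraries. Guide 9 varied little between its GFP-negative libraries (8196 ± 1466 CPM, SD, n = 3), whereas guide 3 had 889, 16341 and 1919 CPM there, against 66.9, 339 and 120 CPM in bulk.

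The weakest members of that line were guides 2 and 7. Guide 2 had 837, 321 and 184 CPM in GFP-negative cells and 33.4, 40.4 and 18.5 CPM in bulk, so it was 14.5-fold higher from only 2 to 5 counts per bulk library. Guide 7 had no count in replicate 1 of either population, 841 and 472 CPM in GFP-negative replicates 2 and 3, and 218 and 0 CPM in the matching bulk libraries. It was the only one of the 10 whose GFP-negative and bulk libraries overlapped. The other 9 guides had every GFP-negative library above every bulk library, which held for 1.51% of the 3918 guides of the table.

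Single guides of the Tdgf1 line did not pass the main test. With edgeR's quasi-likelihood test and Benjamini-Hochberg adjustment at 0.05, 0 of 10 GFP-targeting guides and 0% of the 3172 tested guides were called higher in GFP-negative than in bulk cells. At an unadjusted p under 0.05 there were 5 guides higher in all, and all 5 were GFP-targeting. Guide 4 had the lowest adjusted p, 0.0801, with a log2 fold change of 5.00 ± 1.87 (SE) and GFP-negative above bulk in 3 of 3 replicates. DESeq2 called 6 guides higher, or 0.223% of the 2694 it gave an unadjusted p, and all 6 were GFP-targeting guides (1, 3, 4, 5, 9 and 10). The limma-voom test called 0. Without the GFP-medium libraries in the fit, edgeR called 8 GFP-targeting guides out of 9 higher in all, in a fit that also differed in its scaling and tested 3089 guides. The count of GFP-targeting guides was 1 without GFP-negative replicate 1 or 2, and 3, 2 and 5 without GFP-medium replicates 1 to 3. No other guide was called higher in these fits.

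In the Zfp42 line GFP-targeting guide 5 had no counts in any library, and the other 9 were 26.9-fold (guide 7) to 51.1-fold (guide 1) higher in GFP-negative than in bulk cells. Guide 10 had 56633, 96329.5, 47829 and 29251 CPM in GFP-negative replicates 1 to 4, against 1493, 2857, 1198 and 460 CPM in bulk. Guide 4 had 27967, 55313, 106801 and 37417 CPM in GFP-negative cells, against 1078, 1832, 2556 and 1202 CPM in bulk. Guide 3 had 60388, 49503, 45004 and 10896 CPM in GFP-negative cells, against 1001, 820, 1013 and 435 CPM in bulk. These guides were the leading ones, and a guide from among the 3 ranked first of all library guides in each of the 4 GFP-negative libraries. Guide 1, with the largest ratio, had 6457, 4533, 15236 and 21919 CPM in GFP-negative cells, against a low 108, 84.4, 391 and 358 CPM in bulk.

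Guide 7 was the exception of the Zfp42 line. It had 7.04 CPM in GFP-negative replicate 1, from 2 counts, against 46.2 CPM in bulk, from 3 counts. In replicates 2 to 4 it had 6104, 2287 and 4162 CPM in GFP-negative cells, against 277, 92.1 and 51.2 CPM in bulk. The other 8 guides with counts had every GFP-negative library above every bulk library, as did 0.408% of the 3918 guides of the table, which were 16 guides and thus 8 others.

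These 8 guides passed the test and were the only ones to do so. The edgeR quasi-likelihood test with Benjamini-Hochberg adjustment called 8 of the 9 tested GFP-targeting guides higher in GFP-negative than in bulk cells, and 8 (0.596%) of all 1342 tested guides. Their fitted log2 fold changes were 5.55 to 6.32, beside a median of -4.06 over all tested guides. Guide 3 rose with a log2 fold change of 6.32 ± 1.85 (SE) and an adjusted p of 0.00571 by that edgeR test, and guide 10 with 6.04 ± 1.78 and 0.00594. Both were higher in 4 of 4 replicates. Guide 8 passed narrowly, with 5.55 ± 2.32 and an adjusted p of 0.0495 by edgeR, and guide 7 did not pass (5.59 ± 2.57, adjusted p 0.0778). DESeq2 called all 9 tested GFP-targeting guides among 12 (1.08%) in all, and limma-voom called 8 among 9 (0.671%).

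The replicate numbers pair the libraries of a line, and with the number as a block edgeR called 6 GFP-targeting guides higher, again the only ones. Guides 6 and 8 then had adjusted p-values of 0.0561 and 0.0701 by edgeR with the block. Leaving out one bulk library lowered the count to 5, 4, 3 and 3 without bulk replicates 1 to 4. With replicates 1 and 2 alone edgeR called 0 GFP-targeting guides, and with replicates 3 and 4 alone it called 5. No other guide was called higher in any of these fits. The summed share was 5.17 and 5.49 higher on the log2 scale within these pairs.

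In the Nanog line GFP-targeting guide 5 again had no counts, and the other 9 had mean CPM values 10.7-fold (guide 8) to 56.4-fold (guide 6) higher in GFP-negative than in bulk cells. Guide 10 had 38111 and 17654 CPM in GFP-negative replicates 1 and 2, against 1952 and 1245 CPM in bulk. Guide 4 had 11308 and 35685 CPM in GFP-negative cells, against 904 and 1915 CPM in bulk. Both lay above bulk in both replicates, but the larger value fell in different replicates.

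Other members of the Nanog line differed strongly between its replicates. Guide 7 had 1092 and 28699 CPM in GFP-negative cells and 373 and 638 CPM in bulk. Guide 6 had 11378 and 315 CPM in GFP-negative cells and 144 and 63.8 CPM in bulk. Guide 9 had 8808 and 0 CPM in GFP-negative cells and 402 and 31.9 CPM in bulk, and was the one guide with counts whose populations overlapped. The remaining 8 were above bulk in every GFP-negative library, as were 0.791% of all 3918 guides.

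The edgeR quasi-likelihood test with Benjamini-Hochberg adjustment called 0 of the 9 tested GFP-targeting guides and 0% of 1232 guides higher in the Nanog line. At an unadjusted p under 0.05 it had 0 as well. The fitted log2 fold changes were 4.83 to 7.17 with standard errors of 2.92 to 3.93. DESeq2 called 8 of the 9 higher among 44 (3.57%) guides in all, with guide 9 at an adjusted p of 0.0521 by DESeq2, and limma-voom called 0. Guide 6 is among the 8 and passed the filter on low counts only through GFP-negative cells, and without it the DESeq2 count was 7 of 8. Leaving out GFP-negative replicate 1 or 2 gave an edgeR count of 7 or 8 GFP-targeting guides, among 133 and 97 guides called higher in all, in fits where GFP-negative cells had 1 library, assumed to vary like bulk.

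The Rpp25 line had 1 library per population, so its values have no replicate check and no test. Guide 10 had 61186 of the GFP-negative counts and 229 of the bulk counts, which is 18.3% against 0.308% of the library. Guide 4 had 37968 counts in the GFP-negative and 117 in the bulk library, and guide 3 had 17767 against 51. Their ratios of GFP-negative to bulk share were 59.5-fold (counting interval 52.3-fold to 68.1-fold), 72.3-fold (60.3-fold to 87.4-fold) and 77.6-fold (59.0-fold to 104-fold). Guides 1, 2, 6 and 9 were 21.8-fold to 43.9-fold higher in GFP-negative than in bulk cells.

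The other members of that line had lower ratios than these 7. Guide 8 had 602 counts in the GFP-negative and 38 in the bulk library, a ratio of 3.53-fold (2.54-fold to 5.04-fold), whose interval lies below those of the 7. Guide 7 had 2 counts in the GFP-negative and 4 in the bulk library, a ratio of 0.111-fold (0.0101-fold to 0.777-fold), so it was lower in GFP-negative cells in these libraries. Guide 5 had no counts. In all, 8 GFP-targeting guides were over 2-fold higher in the GFP-negative library on the scale of CPM + 1, as were 2.81% of all 3918 guides and 6.09% of the 1807 with a count.

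GFP-medium cells, sorted in the Tdgf1 and Zfp42 lines, ask whether a partial loss of fluorescence also selects for these guides. Most of them did not have a higher level there than in bulk. In Tdgf1 the summed share was 0.155%, 0.408% and 0.0378% in GFP-medium replicates 1 to 3, against 0.202%, 0.242% and 0.186% in bulk. In Zfp42 it was 0.0538%, 0.583%, 0.838% and 0.0606% in GFP-medium replicates 1 to 4, against 0.574%, 0.805%, 0.645% and 0.330% in bulk. The populations overlapped in both lines. The share was 0.2002% ± 0.189 in GFP-medium and 0.210% ± 0.0289 in bulk cells of Tdgf1 (SD, n = 3 each), and 0.384% ± 0.391 and 0.589% ± 0.198 in those of Zfp42 (SD, n = 4 each). The GFP-medium and GFP-negative comparisons share their bulk libraries, and their values are therefore only set side by side.

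The larger GFP-medium shares came from one guide each. In Tdgf1 replicate 2, guide 8 had 1243 counts in GFP-medium and 28 in bulk, and made up 80.4% of all GFP-targeting counts of the GFP-medium library. In Zfp42 replicate 2, guide 4 had 1317 counts in GFP-medium and 152 in bulk, or 84.2% of the GFP-targeting counts there. In Zfp42 replicate 3, guide 8 had 766 counts in GFP-medium and 8 in bulk. Each of these guides was low in the other GFP-medium libraries of its line, where guide 8 of Tdgf1 had 47.6 and 0 CPM, guide 4 of Zfp42 had 99.1, 897 and 108 CPM, and guide 8 of Zfp42 had 9.44, 44.7 and 6.73 CPM. Without the leading guide of each library, the share of the others was 2.15-fold, 2.75-fold and 9.63-fold lower in GFP-medium than in bulk cells of Tdgf1. In Zfp42 it was 15.6-fold, 6.75-fold, 3.02-fold and 6.61-fold lower. Since the leading guide was picked from the same GFP-medium library, these ratios are a description that the choice pushes downward.

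By mean CPM, 2 GFP-targeting guides of Tdgf1 (6 and 8) and 1 of Zfp42 (8) were higher in GFP-medium than in bulk cells, and 8 in each line were lower. The median log2 ratio of CPM + 1 was -1.59 in Tdgf1 and -2.20 in Zfp42. Guide 2 of Tdgf1 had no count in any GFP-medium library, which makes it at least 4.38-fold lower than in bulk at 3 counts per library. In Tdgf1 3 guides (1, 2 and 4) had every GFP-medium library below every bulk library, as did 58.3% of all 3918 guides. In Zfp42 there were 2 such guides (3 and 9), beside 17.6% of all guides. A position below bulk in GFP-medium cells was thus common among all library guides.

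The edgeR quasi-likelihood test with Benjamini-Hochberg adjustment called 0 GFP-targeting guides higher and 0 lower in GFP-medium than in bulk cells of either line. It called 0% of all tested guides higher in both lines, 40.3% lower in Tdgf1 and 19.7% lower in Zfp42. At an unadjusted p under 0.05 by edgeR, 1 GFP-targeting guide was lower in Tdgf1 and 0 in Zfp42. Over all tested guides, 1575 of 3172 were lower at that level in Tdgf1 and 384 of 1342 in Zfp42. DESeq2 called guides 2 and 4 lower in Tdgf1, where it called 61.1% of all guides lower, and guides 3, 9 and 10 lower in Zfp42, where it called 34.6%. The sign of the fitted change of guides 6 and 8 in Tdgf1, and of guides 4 and 8 in Zfp42, turned under other scalings or fits or without a single library.

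Set directly against each other, GFP-negative cells held far more of these guides than GFP-medium cells. In Tdgf1 the summed share was 29.2-fold, 20.6-fold and 175-fold higher in GFP-negative than in GFP-medium cells within replicates 1 to 3. In Zfp42 it was 399-fold, 48.3-fold, 33.1-fold and 265-fold higher within replicates 1 to 4. In Tdgf1 8 of 10 guides had every GFP-negative library above every GFP-medium library, as did 2.12% of all 3918 guides. In Zfp42 7 did, as did 0.383% of all guides. The guides that overlapped were 7 and 8 in both lines, and guide 5 of Zfp42, which had no counts. Guide 2 of Tdgf1, listed with 0 counts in GFP-medium cells, was at least 63.7-fold higher in GFP-negative cells.

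In Zfp42, edgeR's quasi-likelihood test with Benjamini-Hochberg adjustment called 7 of the 9 tested GFP-targeting guides higher in GFP-negative than in GFP-medium cells, and 49 (3.65%) of all 1342 tested guides. Guide 3 rose with a log2 fold change of 8.50 ± 2.03 (SE, adjusted p 0.0253 by edgeR), and guide 9 with 8.51 ± 2.28 at the same adjusted p. Guides 7 and 8 did not pass, with adjusted p-values of 0.0566 and 0.300 by edgeR. With the replicate number as a block edgeR called 0, the adjusted p-values being 0.183 to 0.277. At an unadjusted p under 0.05, 8 GFP-targeting guides were higher in that fit, among 25 guides in all. DESeq2 called 8 of them among 40 guides (3.61%). With the block DESeq2 called 9 of 9 GFP-targeting guides among 37 guides in all, and limma-voom, without it, called 8 among 15. Without GFP-negative replicate 1 edgeR called 0, so the edgeR calls of this comparison rest on that library and on the unblocked fit. In Tdgf1 edgeR called 0 of 10 GFP-targeting guides and 0% of 3172 guides, with 7 and 715 at an unadjusted p under 0.05. Guide 2 is among these 7 and passed the filter only through GFP-negative cells, and without it there were 6 of 9. DESeq2 called 7 GFP-targeting guides in Tdgf1, among 452 guides (16.8%), again with guide 2, and 6 without it. The limma-voom test called 0 of them, among 0.0315% of 3172 guides.

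Among all library guides, the GFP-targeting ones stood at the top of the GFP-negative population. Ranked by mean CPM, 6 of them stood among the first 10 guides of GFP-negative cells in Tdgf1, 8 in Zfp42, 4 in Nanog and 5 in Rpp25, where they are 10 of 3918 guides. A GFP-targeting guide ranked first in each line, guide 4 in Tdgf1 and guide 10 in Zfp42, Nanog and Rpp25. In bulk cells 0, 0, 0 and 1 were among the first 10 of these lines. In GFP-medium cells 0 were among the first 100 in both lines, with best ranks of 215 in Tdgf1 and 184 in Zfp42. These ranks describe the libraries and were not tested.

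The guides with an interval that came nearest to them give a scale. In Tdgf1 GFP-negative cells the highest was at chr9:110946745-110946767 (mm10, intervals as deposited), with a mean of 7776 ± 12403 CPM (SD, n = 3) and 0 CPM in one library, below 3 GFP-targeting guides. In Zfp42 it was at chr8:43296492-43296513, with 13514 ± 5220 CPM (SD, n = 4), below 5 of them. In Nanog it was at chr6:122707064-122707086, with 22972 ± 30894 CPM (SD, n = 2), and in Rpp25 at chr9:57504741-57504762, with 32487 CPM. In the last 2 lines 2 and 3 GFP-targeting guides had a higher mean. In GFP-medium cells the highest mean of a GFP-targeting guide was 1109 CPM in Tdgf1, against 19153 ± 14706 CPM for the highest guide with an interval (chr9:110946036-110946058, SD, n = 3). In Zfp42 it was 1592 CPM, against 25780 ± 23663 CPM (chr8:43321187-43321208, SD, n = 4).

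Guides that lie up to 2 kb to either side of the tagged gene's annotated start are called promoter guides here. They give a comparison, since mutations there can affect expression of the reporter. The window also takes in sequence within the gene. In Nanog and Rpp25 this can include coding sequence of the protein fused to GFP, and in Tdgf1 and Zfp42 sequence that GFP replaced. The class is therefore not alike between lines. Per guide, the GFP-targeting guides had a mean of 6521 CPM in GFP-negative cells of Tdgf1, against 788 CPM for the 456 promoter guides, a ratio of 8.28. The ratio was 68.4 in Zfp42 (23372 against 342 CPM, 453 promoter guides), 30.4 in Nanog (11142 against 367 CPM, 485) and 59.6 in Rpp25 (41965 against 704 CPM, 665). Promoter guides together held 35.9% ± 5.49 of the GFP-negative counts in Tdgf1 (SD, n = 3), 15.5% ± 2.53 in Zfp42 (SD, n = 4), 17.8% ± 0.706 in Nanog (SD, n = 2) and 46.8% in the single Rpp25 library, so the order of these shares does not follow the order of the ratios. By mean, the order was the other way round in GFP-medium cells, with 200 CPM per GFP-targeting guide against 1334 CPM per promoter guide in Tdgf1. In Zfp42 it was 384 against 484 CPM, but this did not hold in every library. Promoter guides together held 20.3% to 22.7% of the Zfp42 GFP-medium libraries, and GFP-targeting guides 0.0538% to 0.838%. In replicates 2 and 3 (0.583% and 0.838%) the GFP-targeting guides stood above the promoter guides per guide. In bulk cells the ratio of GFP-targeting to promoter guides was 0.739 in Tdgf1, 2.02 in Zfp42, 2.89 in Nanog and 3.18 in Rpp25.

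The tables also differ in how many guides they detect. Among the GFP-targeting guides 0 of 10 were at 0 throughout in Tdgf1, and 1 of 10, always guide 5, in each of the other lines. Among the 3908 guides with an interval the share at 0 was 3.61% in Tdgf1, 56.3% in Zfp42, 57.4% in Nanog and 54.0% in Rpp25. A count of 0 in all libraries of a line allows guide 5 a share of up to 0.000133% in Zfp42, 0.000636% in Nanog and 0.000735% in Rpp25. In bulk a GFP-targeting guide averaged 210 CPM in Tdgf1, 589 in Zfp42, 569 in Nanog and 815 in Rpp25, against 254 to 255 CPM for a guide with an interval. All 10 were tested in Tdgf1 and 9 in Zfp42 and in Nanog. Of these, guide 2 of Tdgf1 and guide 6 of Nanog passed the filter on low counts only through GFP-negative cells, where they were high.

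Levels differed widely between GFP-targeting guides of one line. In GFP-negative cells the highest mean CPM was 36.3-fold the lowest in Tdgf1, 18.3-fold in Zfp42 and 7.28-fold in Nanog, with guide 5 left out where it had no counts. In Rpp25 it ran from 183407 CPM for guide 10 to 6.00 CPM for guide 7. The first and second guides were numbers 4 and 10, in either order, in GFP-negative and in bulk cells of all 4 lines. Together they held 43.7% of the GFP-targeting CPM of GFP-negative cells in Tdgf1, 48.9% in Zfp42, 46.1% in Nanog and 70.8% in Rpp25. In bulk they already held 42.3%, 53.8%, 52.8% and 57.1%.

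The level in GFP-negative cells followed the level in bulk from guide to guide. Within a replicate, Spearman's rho between both levels over the GFP-targeting guides with counts in the line was 0.70 to 0.88 in Tdgf1 (n = 10), 0.67 to 1 in Zfp42 (n = 9), 0.37 and 0.78 in Nanog (n = 9) and 0.93 in Rpp25 (n = 9). These guides share their library and, within a replicate, the electroporated population from which cells were sorted. No p is given, since the guides are not replicates.

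The order of the guides was then compared between lines by number. By GFP-negative level over the 10 numbers, rho was 1 between Zfp42 and Rpp25, 0.70 between Zfp42 and Nanog and 0.70 between Nanog and Rpp25. Tdgf1 correlated less with each of these, at 0.56 with Zfp42, 0.20 with Nanog and 0.56 with Rpp25. Bulk levels gave the same picture, with 0.98 between Zfp42 and Rpp25, 0.60 and 0.66 for Nanog with these lines, and 0.35, -0.02 and 0.28 for Tdgf1 with Zfp42, Nanog and Rpp25. Guide 5, at 0 in Zfp42, Nanog and Rpp25 but at 6706 CPM in GFP-negative cells of Tdgf1, sets part of these values. Without it (n = 9) rho of the GFP-negative level was 1 between Zfp42 and Rpp25, 0.58 for Nanog with either, and 0.78, 0.33 and 0.78 for Tdgf1 with Zfp42, Nanog and Rpp25. The lines share no library, but each value carries the bulk abundance of its guide.

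The ratio of GFP-negative to bulk CPM, which takes that abundance out, did not give a stable order. From line means, its rho between lines was 0.21 to 0.61 over 10 numbers and 0.07 to 0.50 over 9. Between replicates of one line, rho of the ratio was -0.39 to 0.25 in Tdgf1, -0.48 to 0.40 in Zfp42 and -0.83 in Nanog. Guides of one line therefore did not keep their order of ratios from replicate to replicate. Between single replicates of different lines, rho over 10 numbers was -0.50 to 0.49 for Tdgf1 with Zfp42, -0.35 to 0.19 for Tdgf1 with Nanog and -0.39 to 0.55 for Tdgf1 with Rpp25. It was -0.15 to 0.60 for Zfp42 with Nanog, -0.21 to 0.72 for Zfp42 with Rpp25 and 0.20 to 0.48 for Nanog with Rpp25, so in 5 of the 6 pairs of lines its sign turned with the replicate. The order of bulk levels did recur in Zfp42, with rho of 0.72 to 0.93 between replicates, and in Nanog, with 0.65. In Tdgf1 it recurred less, with 0.16 to 0.61. The order of GFP-negative levels had rho of 0.19 to 0.72 in Tdgf1, 0.32 to 0.72 in Zfp42 and -0.12 in Nanog.

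By ratio of mean CPM, guide 7 was the lowest in 3 of the 4 lines. It ranked last of the guides with counts in Tdgf1, Zfp42 and Rpp25, at log2 ratios of CPM + 1 of 2.57, 4.74 and -2.97. In Nanog it was 29.4-fold higher in GFP-negative than in bulk cells by mean, mostly through GFP-negative replicate 2, and guide 8 was the lowest there at 3.41. By median CPM, guide 7 had 472 in GFP-negative and 0 in bulk cells of Tdgf1, and 3225 and 71.6 in those of Zfp42. Its last place in Tdgf1 and Zfp42 thus rested on the means. Guide 7 also had the fewest bulk counts in Zfp42 and Rpp25, with 2 to 23 counts per Zfp42 library and 4 in Rpp25. By ratio of mean CPM, guide 3 was among the first 3 in Tdgf1, Zfp42, Nanog and Rpp25, at log2 ratios of 5.18, 5.66, 5.37 and 6.28. By median CPM, guide 3 had 1919 in GFP-negative and 120 in bulk cells of Tdgf1, a lower ratio than most guides of that line. Its place in Tdgf1 thus also rested on the means. Whether these numbers stand for one guide in all lines cannot be read from the tables.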

How the data were processed

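The values are counts of guide RNAs per library, as deposited by the authors in one table per line, made from genomic DNA by PCR per the labels' protocols. The genome build is mm10 per the submitters' processing notes. No source used here names the counting program. Tables held whole numbers with a different total per library and were taken as raw counts. Sample titles gave the groups and replicate numbers, except that the GFP-negative library titled Rpp26 was placed in Rpp25 by its description. Of 33 samples, 6 deep-sequencing samples were not analysed here.

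The tables of replicated lines were each fitted by themselves with edgeR 4.0.16 (R 4.3.3), without the placeholder row, with all populations in the fit, filterByExpr (minimum count 10), TMM scaling, the robust quasi-likelihood F test (2-sided) and Benjamini-Hochberg adjustment at 0.05 over all tested guides. The alternatives were DESeq2 1.42.0, limma-voom (limma 3.58.1), other scalings, no filter, the replicate block, fewer populations and libraries left out one at a time. The edgeR fit was also run on counts simulated around the bulk means. Their spread was set in advance and not taken from the sorted libraries, so that run does not show how well the fit works on those. Log2 ratios of mean CPM had 1 CPM added. Bounds for groups at 0 used 3 counts per library. Rpp25 shares have exact Clopper-Pearson 95% intervals, and ratio intervals come from the exact binomial interval of the 2 counts. Genes' 5′ ends came from a RefSeq table of the matching assembly.

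The labels give the replicate number as the replicate of the line that was electroporated. Deviations from the population means correlated above 0.1 in all same-numbered pairs (0.143 to 0.464 in Tdgf1, 0.116 to 0.259 in Zfp42, 0.404 in Nanog), so the numbers were taken to pair libraries. All other pairs were below 0, which is no separate support, since deviations from a mean sum to 0. In Nanog, with 2 replicates, the others were fixed at -0.404. Replicate libraries differed by more than sampling noise in all 29 pairs (lowest chi-square per degree of freedom 5.61). All GFP-targeting guides are named, and of the others only the highest of each sorted population and the promoter class. The members and lists were chosen with earlier results of these data known.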

Additional observations from a re-analysis of the deposited data

Results flagged for a closer look

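In 4 of 30 groups of 4 libraries examined, all in Zfp42 GFP-medium cells, a single library lay far from the other 3 by Dixon's test. Its cutoff flags about 1 group in 20 by chance where values are normally distributed. It was applied to CPM without a log, which need not be so distributed, so the number of flagged groups cannot be read against that rate. Guide 8 had 6307 CPM in replicate 3, against 6.73 to 44.7 CPM in the other 3 libraries. Guide 4 had 4911 CPM in replicate 2, against 99.1 to 897 CPM. Guide 3 had 231 CPM in replicate 3, against 74.1 to 89.5 CPM, and guide 7 had 114 CPM in replicate 4, against 0 to 7.46 CPM. For guides 4 and 8 the high library is the one that carried the larger summed share of GFP-targeting guides in GFP-medium cells. For guides 3 and 7 the high values rest on 28 and 17 counts. No pair of the replicated lines had a guide whose replicates all went one way in one line and all the other way in the other, in 55 checks.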

How the results depend on the processing

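In the comparisons of Zfp42 with called GFP-targeting guides, the count stayed within 1.5 times the reported one in 34 of 46 alternatives. Where 0 were called, it stayed at 0 in 35 of 49 alternatives for GFP-negative cells and in 41 of 41 for GFP-medium against bulk cells. The log2 ratio of the summed share stayed within the spread between replicates in 85 of 87 alternatives, and in Rpp25, with no replicates, within its counting interval in 1 of 3. The ranking between lines stayed within its spread in 16 of 18. In GFP-negative against bulk cells of Tdgf1 (0 as reported), DESeq2 called 6, DESeq2 with the replicate block 3, and edgeR without GFP-medium libraries 8, and leaving out a library gave 0 to 5. Over all tested guides these counts were 6, 3, 9 and 0 to 5. Against GFP-medium cells of Tdgf1 (0), DESeq2 called 7 among 452 guides and, with the block, 8 among 243. In GFP-negative against bulk cells of Zfp42 (8), edgeR called 4 with DESeq2's size factors, 0 with replicates 1 and 2 alone and 5 with replicates 3 and 4 alone, and 3 to 9 without one library. Over all tested guides these counts were 4, 0, 5 and 3 to 13. Against GFP-medium cells of Zfp42 (7), edgeR called 0 with the replicate block, 2 with these 2 populations alone and 0 within either pair of replicates. Over all tested guides these counts were the same. Without a single library it called 0 to 8, where 0 to 55 of all tested guides were called higher. In Nanog (0), DESeq2 called 8, among 44 guides without the block and 11 with it, and edgeR 0 to 8 without one library, among up to 133 guides. The paired fits changed no other count of called GFP-targeting guides in GFP-negative cells by over 1.5 times. Guide 2 of Tdgf1 and guide 6 of Nanog passed the filter only through GFP-negative cells. Without guide 2, DESeq2 called 6 in GFP-negative against GFP-medium cells of Tdgf1 and, with the block, 7. Without guide 6, it called 7 in Nanog, with or without the block.

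As odds against all other guides, the log2 ratio of the GFP-negative to the bulk share was 5.71 in Zfp42, 4.45 in Nanog and 6.46 in Rpp25, and without the leading guide 5.54 in Rpp25. From median CPM, rho of the ratio was -0.41 between Tdgf1 and Rpp25, against 0.61 from means, and 0.70 between Zfp42 and Nanog, against 0.42. The scaling moved the median over all tested guides of Zfp42 in GFP-negative against bulk cells to between -5.32 and -2.27 on the log2 scale, against -4.06 as reported, and that of the GFP-targeting guides to between 4.90 and 7.82, against 6.04. Over all tested guides of Tdgf1 it was -2.74 to -1.29, against -1.67, and of Nanog -2.88 to -0.58, against -1.29. The cause of these shifts was not tested.

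Of 1275 fitted changes of single GFP-targeting guides under an alternative, 34 turned their sign, 33 of them in GFP-medium against bulk cells, where none was called as reported. In Tdgf1, guide 5 was at 0.27 with TMMwsp scaling, and guide 6 at -0.29 with DESeq2's size factors and with DESeq2, -3.31 with limma-voom, -2.67 with the replicate block and -3.98 with the block in DESeq2. Guide 8 was at -1.04 with limma-voom and -0.23 with the block in DESeq2. In Zfp42, guide 2 was at 0.59 with TMMwsp scaling and 0.076 with replicates 1 and 2 alone, and guide 7 at 0.20 with replicates 3 and 4 alone. Guide 4 was at -0.20 with total counts, -0.95 with limma-voom, -0.96 with the block, -1.48 with the block in DESeq2 and -1.58 with replicates 3 and 4 alone. Guide 8 was at -1.23 with limma-voom, -1.51 with the block, -1.96 with the block in DESeq2 and -2.70 with replicates 1 and 2 alone. Without one library the ranges were -0.76 to 0.25 (guide 5), -6.45 to 1.11 (guide 6), -7.56 to 5.98 (guide 7) and -2.18 to 4.39 (guide 8) in Tdgf1, and -1.20 to 0.31 (guide 2), -1.78 to 1.77 (guide 4), -3.67 to 0.032 (guide 7) and -2.52 to 3.83 (guide 8) in Zfp42. Guide 9 of Nanog in GFP-negative against bulk cells ranged from -6.86, without GFP-negative replicate 1, to 8.79. Between replicate libraries of one population, chi-square per degree of freedom over guides was 292 to 928 in GFP-negative, 224 to 745 in GFP-medium and 5.61 to 18.2 in bulk cells, so the spread between sorted replicates far exceeded counting error.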
